A study of Mus musculus with 4 samples.

Results

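Collagen chain genes were followed in mouse embryonic forelimbs with and without Sonic hedgehog. A member was any gene whose symbol has the form Col, a type number, the letter a and a chain number, and whose value was at least 1 CPM (reads of a gene scaled to library size) in at least 2 of the 4 libraries. Of 44 such symbols among the 17712 genes of the table, 35 passed and 9 did not. The 35 comprise 10 fibrillar chains, 4 basement membrane chains, 3 beaded filament chains, 9 FACIT chains (fibril-associated collagens with interrupted triple helices), 4 transmembrane chains, 2 multiplexins, 1 short-chain network collagen and 2 others.

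The libraries came from total RNA of forelimbs of Swiss Webster littermate embryos with 33 to 35 somites (labelled E10.25 for age and E10.5 for source, in days of gestation). There were 2 libraries from wild type and 2 from Shh null embryos. The Shh null allele, the number of embryos in a library and whether tissue was pooled are not described, and the design text calls the libraries of a genotype technical replicates. The p-values below therefore measure only the spread between these libraries.

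Collagens are extracellular proteins in which 3 chains wind into a triple helix. Fibrillar collagens form the tension-bearing fibres of mesenchyme, cartilage and bone. FACIT chains sit on the surface of these fibres, type IV chains form the sheet of basement membranes, and type VI chains form beaded filaments around cells. Transmembrane collagens are anchored in the cell surface. In the early limb bud the mesenchyme is still undifferentiated, and cartilage collagens accumulate later as skeletal elements condense.

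The libraries held 18456502 to 29620468 reads assigned to genes, and a single read was worth 0.0351 to 0.0551 CPM. Shh was at 11.4 and 7.88 CPM in wild type 1 and 2, and at 3.15 and 2.42 CPM in Shh null 1 and 2. Its target Gli1 was at 16.6 and 15.98 CPM and at 0.249 and 0.366 CPM. Ptch1, another target, was at 32.4 and 35.1 CPM and at 5.93 and 7.14 CPM. All 3 genes were lower in the libraries labelled Shh null. The limb mesenchyme markers Prrx1, Prrx2, Tbx5, Twist1, Msx1, Fgf10 and Lmx1b, 7 of 7 listed, passed the filter. The libraries also differed in blood cell RNA: 5 erythroid genes summed to 10973 and 2938 CPM in wild type and to 3725 and 6329 CPM in Shh null. In addition, Xist, transcribed from the inactive X chromosome, was at 225 and 152 CPM in wild type and at 522 and 468 CPM in Shh null. The Y-linked genes Ddx3y (119 and 106 CPM, then 39.1 and 42.3 CPM) and Eif2s3y (56.6 and 51.6 CPM, then 18.9 and 18.8 CPM) were lower in Shh null. The sex-linked transcripts thus differed between the genotypes in both directions. Xist and both Y-linked genes were read in every library, so each library held RNA of both sexes. The part of the blood cell or the sex-linked difference in the collagen values was not tested. In bulk tissue, fewer cells of a type and less RNA per cell cannot be told apart.

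Of the 35 collagen chain genes, 6 were called higher in Shh null forelimbs (Col1a1, Col1a2, Col6a2, Col6a3, Col7a1 and Col17a1) and 0 were called lower, by limma on log2(CPM + 1) with a Benjamini-Hochberg adjusted p under 0.05. Over all 13224 genes tested, limma called 2.48%, of which 1.24% higher and 1.24% lower. By edgeR 7 of the 35 were higher and 0 lower, and that tool called 1.28% of all genes higher and 1.21% lower, 2.49% in all. By DESeq2 11 were higher and 0 lower, against 1.91% and 2.06% of all genes. At an unadjusted limma p under 0.05, 17 of the 35 were higher and 2 lower (Col19a1 and Col23a1), against 9.5% and 9.02% of all tested genes. The fitted log2 fold change was above 0 for 32 of the 35 collagen chain genes and for 49.9% of all tested genes. Its median over the collagen chain genes was 0.38, against −0.0005 over all tested genes. In 24 of the 35 both Shh null libraries lay above both wild-type libraries, in 2 both lay below, and in 9 the groups overlapped. Over all tested genes 25.1% lay above and 25% below. Of the 35, 33 had at least 1 CPM in both genotypes. Col20a1 passed the filter only through Shh null and Col19a1 only through wild type, so these chains had to differ.

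The count of 6 depended on single libraries. Without Shh null 1 it was 1 (Col1a1), and without Shh null 2 it was 3 (Col1a2, Col6a3 and Col16a1). Without wild type 2 it was 11. The calls over all genes moved as well, from 328 to 56, 99 and 802 in these fits. DESeq2, with 11, called 3.98% of all tested genes. Without a filter on low values the number was 3.

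**Figure D1:**
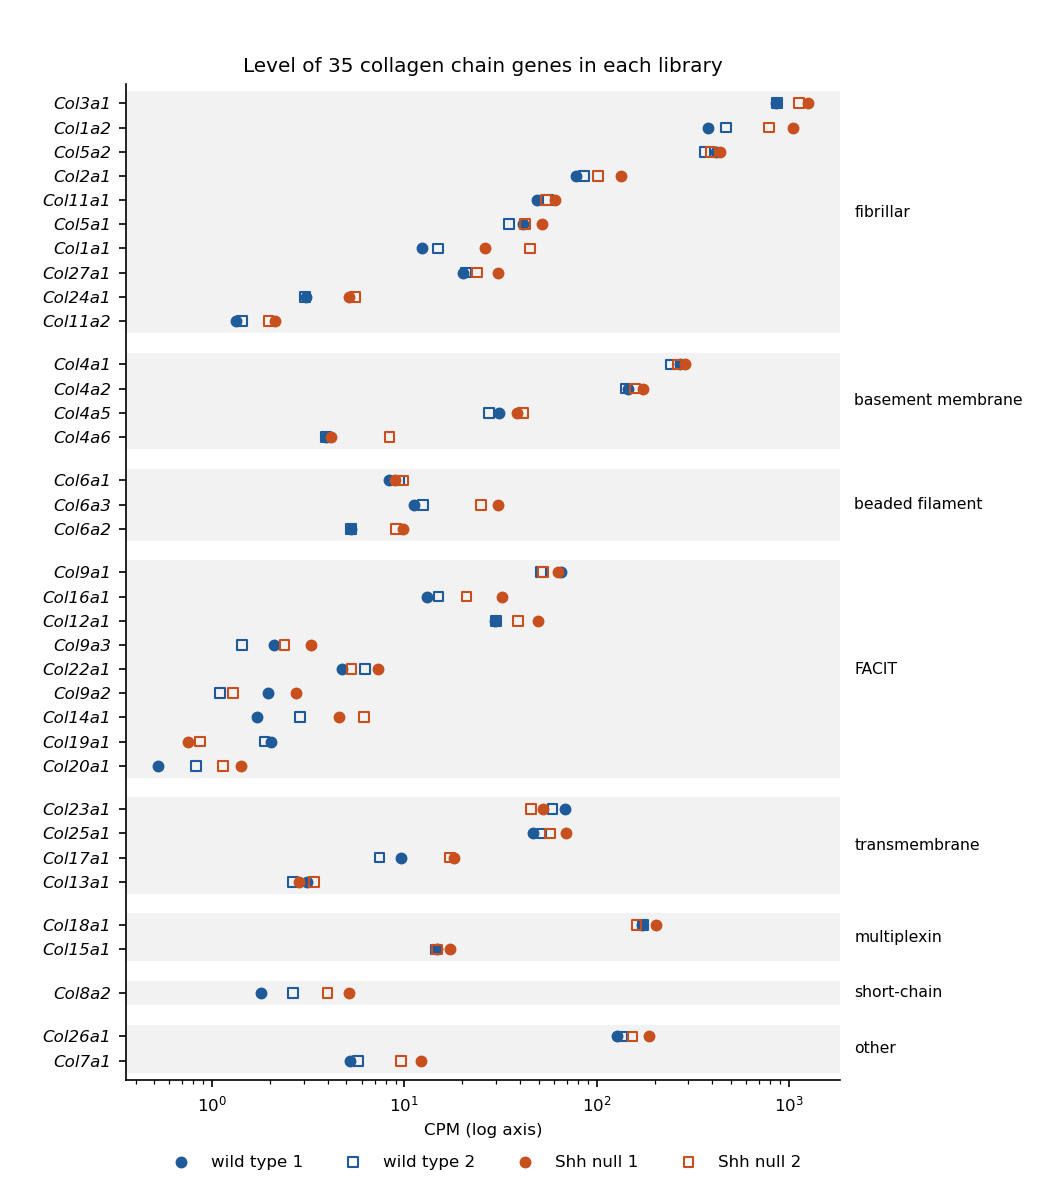
Level of each of the 35 collagen chain genes in CPM (log axis) in the 4 libraries, grouped by class and ordered by level per kilobase of transcript. Filled circles are replicate 1 and open squares replicate 2 of wild type (blue) and Shh null (orange). In 24 of the 35 genes both orange symbols lie to the right of both blue symbols. Among these are the called genes Col1a2, Col1a1, Col6a3, Col6a2, Col17a1 and Col7a1. In 2 genes, Col19a1 and Col23a1, both lie to the left.

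The genomic starts of the chains called higher are shown first. These chains belong to different classes and were picked by their calls, and whether they are controlled together was not tested. RefSeq promoter windows (build GRCm38.p6) were at hand for 5 of the 6 called genes and for 27 of the 35. For each of the 5, the printed stretch holds at most 150 bases from the 250 bases before the start, outside annotated exons, read 5′ to 3′ on the gene's strand. For Col6a2, with more than 1 RefSeq window, the stretch lies before the upstream start. For Col1a2 the RefSeq start lies downstream of the earliest start in GENCODE, so its stretch is within the annotated gene span, between exons. Capitals mark matches on either strand to 6 words, none of which contains another. The TATA box was searched as TATAAA, the CCAAT box by its name, the GC box as GGGCGG, the GLI site as TGGGTGGTC, the RUNX site as TGTGGT and the SOX site as ACAAAG.
Col1a2, chr6:4505370-4505492, plus strand: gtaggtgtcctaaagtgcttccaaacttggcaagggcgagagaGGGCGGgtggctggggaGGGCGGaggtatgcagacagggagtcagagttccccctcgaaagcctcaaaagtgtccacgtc
Col6a3, chr1:90843972-90844121, minus strand: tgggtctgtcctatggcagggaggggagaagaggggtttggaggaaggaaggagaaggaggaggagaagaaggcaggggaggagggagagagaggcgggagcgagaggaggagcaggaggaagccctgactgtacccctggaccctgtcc
Col6a2, chr10:76623631-76623780, minus strand: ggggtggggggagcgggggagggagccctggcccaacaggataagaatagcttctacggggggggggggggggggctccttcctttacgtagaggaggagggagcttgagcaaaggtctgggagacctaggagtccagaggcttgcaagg
Col7a1, chr9:108953436-108953585, plus strand: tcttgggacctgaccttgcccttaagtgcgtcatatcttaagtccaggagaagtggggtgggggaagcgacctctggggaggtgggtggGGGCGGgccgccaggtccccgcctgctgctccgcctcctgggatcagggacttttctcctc
Col17a1, chr19:47692095-47692244, minus strand: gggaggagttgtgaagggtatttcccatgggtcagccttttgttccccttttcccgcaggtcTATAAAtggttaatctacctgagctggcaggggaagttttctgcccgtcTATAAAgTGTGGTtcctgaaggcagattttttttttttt

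No word was found in all 5 genes in the full 250-base windows. A GC box was found in 3 of 5 (Col1a2, Col6a2 and Col7a1), a CCAAT box in 3 of 5 (Col1a2, Col7a1 and Col17a1), and a TATA box and a RUNX site in Col17a1. The Col6a3 window held 0 matches to the 6 words. Over the 27 tested collagen chain genes with a window, 59.3% held a GC box, against 33.0% of 32536 windows of the same length from all genes, and 40.7% held a CCAAT box, against 33.8%. These shares are not on the same footing. A collagen gene with several windows was counted if any of them held the word, whereas over all genes each window counted singly. Col18a1 and Col9a1 counted for the CCAAT box through a single window each, and Col18a1 likewise for the GC box. The GLI word was in 0 of the 27 and in 0.22% of all windows. These matches describe letters only, and a word that is missing says nothing about the factor. Base composition differed too, with a median of 58% G and C in the 27 windows and 52.4% in all windows.

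The type I collagen genes, which encode the chains of the main fibre-forming collagen of bone, skin and tendon, rose in Shh null forelimbs. Col1a2 (chromosome 6, 4504814 to 4541544, mm10) was at 381 and 470 CPM in wild type 1 and 2 and at 1055 and 788 CPM in Shh null 1 and 2. Both Shh null libraries were above both wild-type libraries, and Shh null 1 was the highest. The means of 425 ± 63.3 and 922 ± 188 CPM (SD, n = 2) differed 2.17-fold, with a log2 fold change of 1.11 ± 0.15 (SE; limma adjusted p = 0.00602). Without Shh null 1 the adjusted p was 0.0963 at a log2 fold change of 0.90.

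Col1a1 (chromosome 11, 94936224 to 94953042) was far lower in level. It was at 12.4 and 15.0 CPM in wild type and at 26.2 and 44.9 CPM in Shh null, so the groups did not overlap and Shh null 2 stood highest. The mean of 13.7 ± 1.84 CPM became 35.5 ± 13.2 CPM, 2.60-fold more (SD over 2 libraries each; change 1.27 ± 0.22 SE on the log2 scale, adjusted p by limma 0.0175). Without Shh null 2 its adjusted p was 0.0893, and without a filter on low values it was 0.055. Type I collagen is assembled from more Col1a1 than Col1a2 chains. Per kilobase of transcript, however, Col1a2 exceeded Col1a1 34.1-fold and 34.8-fold in wild type 1 and 2, and by 44.7-fold and 19.5-fold in the Shh null libraries. The ratios overlapped between genotypes. In the annotation 0% of the exon bases of Col1a1 or Col1a2 are shared with another gene. The low Col1a1 level rests on 272 to 981 reads per library, and its origin was not tested.

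The other abundant fibrillar genes moved less. Col3a1, whose homotrimers accompany type I in soft tissue, had the highest level per kilobase of all 35 in both genotypes. It was at 861 and 864 CPM in wild type and at 1250 and 1124 CPM in Shh null, groups that did not overlap. It was not called by limma (log2 fold change 0.46 ± 0.11 SE, adjusted p = 0.0678), but was called by DESeq2 (0.00202) and with quantile normalization (0.0419). Col5a2, a chain of the type V collagen that starts fibrils, was at 419 and 366 CPM in wild type and at 439 and 391 CPM in Shh null, and these groups overlapped. Its partner Col5a1 was at 41.3 and 35.0 CPM and at 51.8 and 42.3 CPM, also uncalled (adjusted p = 0.281). Col5a3 was below the filter, at 0 to 0.274 CPM.

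Cartilage fibril genes were measured at moderate levels. Col2a1, the main collagen of cartilage, was at 77.7 and 85.7 CPM in wild type and at 134 and 101 CPM in Shh null, with both Shh null libraries above. It was not called by limma (log2 fold change 0.51 ± 0.13 SE, adjusted p = 0.0843) but was by DESeq2 (0.0197). Col11a1, which sits within cartilage fibrils, was at 49.1 and 56.0 CPM and at 60.8 and 54.5 CPM, and the groups overlapped. Col11a2 was low, at 1.33 and 1.43 CPM and at 2.12 and 1.97 CPM. The other fibrillar chains, Col24a1 and Col27a1, were above wild type in both Shh null libraries and were not called (adjusted p = 0.0823 and 0.201). In sum 2 of the 10 fibrillar genes were called and all 10 had a fitted change above 0, with a median of 0.42.

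None of the 4 tested basement membrane genes was called by limma, edgeR or DESeq2. At an unadjusted limma p under 0.05, 1 (Col4a5) was higher and 0 lower, against 9.5% and 9.02% of all tested genes. Col4a1 and Col4a2 encode the chains found in nearly all basement membranes. Col4a1 was at 271 and 244 CPM in wild type and at 287 and 263 CPM in Shh null, with overlapping groups. Col4a2 was at 146 and 143 CPM and at 175 and 158 CPM. Their log2 fold changes were 0.10 ± 0.10 and 0.20 ± 0.10 (SE; limma adjusted p = 0.655 and 0.301). The genes are divergent and their annotated starts overlap by 22 bases, shown here because it is the start both share.
Col4a1 and Col4a2, chr8:11312805-11312826, plus strand: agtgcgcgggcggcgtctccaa

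The X-linked pair Col4a5 and Col4a6 is likewise divergent, with 1308 bases between the genes. Col4a5 was at 30.9 and 27.6 CPM in wild type and at 38.7 and 41.4 CPM in Shh null, groups that did not overlap (log2 fold change 0.44 ± 0.12 SE, limma adjusted p = 0.0886). Col4a6 was at 3.93 and 3.91 CPM in wild type, at 4.15 CPM in Shh null 1 and at 8.37 CPM in Shh null 2. Its log2 fold change of 0.50 was 0.06 without Shh null 2, so 1 library made the difference. Xist, Ddx3y and Eif2s3y, given above, also differed between the genotypes. The part of the sex mix of the libraries in the values of this X-linked pair was not tested. Col4a3 and Col4a4, the partner chains of Col4a5 in kidney and lung, were at 0.0915 to 0.386 CPM and 0.0702 to 0.166 CPM, below the filter.

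Among type VI genes, the beaded filament chains, the rise was unequal. Col6a3 (chromosome 1, 90765923 to 90843971, minus strand), the longest of the 3 main chains, was at 11.3 and 12.6 CPM in wild type and at 30.6 and 25.0 CPM in Shh null. The mean of 11.9 ± 0.916 CPM became 27.8 ± 3.98 CPM, 2.33-fold more (SD over 2 libraries each; change 1.15 ± 0.15 SE on the log2 scale, adjusted p by limma 0.00368), the smallest adjusted p of the 35 genes. Without Shh null 1 its adjusted p was 0.0931. Col6a2 was at 5.26 and 5.29 CPM and at 9.87 and 9.06 CPM, a 1.79-fold rise (log2 fold change 0.74 ± 0.16 SE, adjusted p = 0.0427). The adjusted p was 0.0512 when wild type 1 was left out, 0.316 for Shh null 1 and 0.121 for Shh null 2. The call was also lost with quantile normalization (0.0827) and without a filter (0.11).

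Col6a1 showed no such difference, at 8.35 and 9.42 CPM in wild type and at 8.96 and 9.88 CPM in Shh null (log2 fold change 0.08 ± 0.16 SE, limma adjusted p = 0.835). Col6a1 and Col6a2 lie on the same strand of chromosome 10 with 85161 bases between them. Per kilobase, Col6a3 stood at 0.547 and 0.541 of Col6a1 in wild type and at 1.39 and 1.03 in Shh null. Col6a1 was 1.90-fold and 2.13-fold above Col6a2 in wild type and 1.09-fold and 1.31-fold above it in Shh null. Neither ratio overlapped between genotypes, but with 2 libraries a group the exact two-sided permutation p is at least 0.333. Such separation was not particular to type VI. Col4a1 to Col4a2 (1.81 and 1.67, then 1.60 and 1.62) was apart as well. So were Col5a2 to Col5a1, Col9a1 to Col9a3, Col11a1 to Col11a2 and Col2a1 to Col11a1. Ratios of Col1a2 to Col1a1, Col4a5 to Col4a6 and Col9a1 to Col9a2 overlapped. Col6a4, Col6a5 and Col6a6, which lie together on chromosome 9, were below the filter at 0 to 0.788 CPM.

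**Figure D2:**
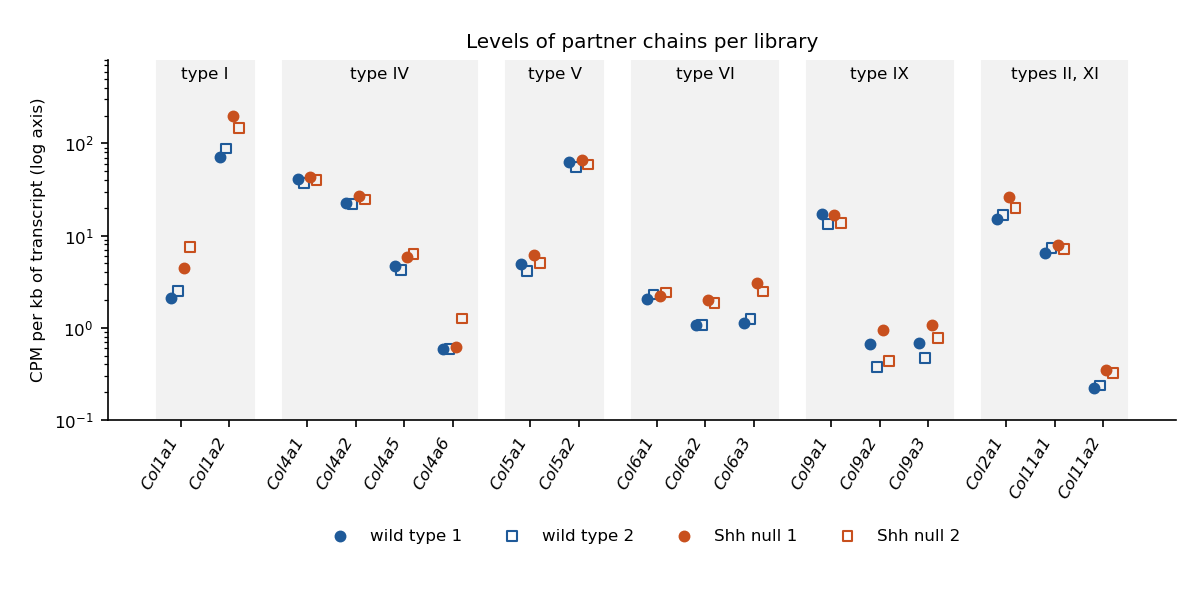
Level per kilobase of longest annotated transcript (CPM per kb, log axis) of chains that assemble with each other, with 1 symbol per library. Filled circles are replicate 1 and open squares replicate 2 of wild type (blue) and Shh null (orange). Col1a2 lies 19.5-fold to 44.7-fold above Col1a1, and Col6a2 and Col6a3 move up in Shh null while Col6a1 stays in place.

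FACIT genes, 9 in number and all tested, gave 0 limma calls in either direction. At an unadjusted limma p under 0.05, 3 were higher and 1 (Col19a1) lower, against 9.5% and 9.02% of all tested genes. By edgeR 1 was called higher (Col16a1), and by DESeq2 3 (Col12a1, Col14a1 and Col16a1). Col16a1, a fibril-associated chain, was at 13.2 and 15.0 CPM in wild type and at 32.2 and 21.0 CPM in Shh null. Both Shh null libraries were above, and the fold of the means was 1.89 (log2 fold change 0.84 ± 0.19 SE). Its adjusted p was 0.0505 by limma, 0.0441 by edgeR, 0.0119 with the replicate block and 0.0126, 0.000876 and 0.0387 without wild type 1, wild type 2 and Shh null 2. Without Shh null 1 it was 0.367.

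Col12a1, a large chain of dense connective tissue, was at 29.5 and 30.1 CPM in wild type and at 49.4 and 39.0 CPM in Shh null (limma adjusted p = 0.068, DESeq2 0.0205). Its relative Col14a1 was at 1.72 and 2.86 CPM and at 4.56 and 6.18 CPM, 2.34-fold apart (limma adjusted p = 0.0566). With the replicate block Col14a1 was called (adjusted p = 0.0109). Col19a1 went the other way, at 2.04 and 1.87 CPM in wild type and at 0.746 and 0.869 CPM in Shh null, the most negative log2 fold change of the 35 (−0.71 ± 0.19 SE, limma adjusted p = 0.0886). Col19a1 passed the filter only through wild type, so lower values in Shh null were a condition of its being tested. It lies 9205 bases from Col9a1 on chromosome 1, with the opposite strand.

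The type IX genes, which decorate cartilage fibrils, did not shift together. Col9a1 was at 65.5 and 51.6 CPM in wild type and at 63.2 and 52.5 CPM in Shh null, with a log2 fold change of −0.01 ± 0.14 (SE; limma adjusted p = 0.977). Col9a2 was at 1.97 and 1.10 CPM and at 2.74 and 1.28 CPM, and Col9a3 at 2.11 and 1.43 CPM and at 3.28 and 2.38 CPM. Replicate 1 was the higher library for all 3 genes in both genotypes. Per kilobase, Col9a1 exceeded Col9a2 17.6-fold to 35.7-fold and Col9a3 15.3-fold to 28.6-fold over the 4 libraries, although the 3 chains form a common heterotrimer. The remaining FACIT genes, Col20a1 and Col22a1, had adjusted p of 0.281 and 0.70.

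Of the 4 transmembrane genes, Col17a1 was called. It encodes a hemidesmosome protein that fastens basal epithelial cells to the basement membrane (chromosome 19, 47646344 to 47692094, minus strand). It was at 9.58 and 7.44 CPM in wild type and at 18.1 and 17.2 CPM in Shh null, and rose 2.08-fold, starting at 8.51 ± 1.52 and reaching 17.7 ± 0.652 CPM (SD over 2 libraries each; change 0.98 ± 0.16 SE on the log2 scale, adjusted p by limma 0.0141). Leaving out Shh null 1 gave an adjusted p of 0.196, and leaving out Shh null 2 gave 0.0897. Col23a1 was lower in both Shh null libraries, at 68.4 and 59.0 CPM against 52.8 and 45.6 CPM, and was not called (log2 fold change −0.37 ± 0.12 SE, adjusted p = 0.15). Col25a1 was at 46.6 and 51.7 CPM and at 69.7 and 57.3 CPM (adjusted p = 0.162). Col13a1 was at 2.64 to 3.39 CPM over the 4 libraries, with overlapping groups.

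Col7a1, the chain of the anchoring fibrils that tie skin basement membrane to the dermis, rose alongside Col17a1. It was at 5.19 and 5.73 CPM in wild type and at 12.3 and 9.61 CPM in Shh null, a 2.003-fold difference (log2 fold change 0.88 ± 0.17 SE, limma adjusted p = 0.0294). It lost the call without Shh null 1 (adjusted p = 0.296) and Shh null 2 (0.0767), with quantile normalization (0.0596) and without a filter (0.0886). Both products act at the basement membrane beneath epithelium, so the levels of surface ectoderm were examined. Of 8 ectoderm markers, all tested, limma, edgeR and DESeq2 called 0. At an unadjusted limma p under 0.05, 3 were higher and 0 lower, against 9.5% and 9.02% of all tested genes. The fitted change was above 0 for 7 of the 8, against 49.9% of all tested genes. In 5 both Shh null libraries lay above both wild-type libraries and in 0 both lay below, against 25.1% and 25% of all tested genes. The summed level of the 8 markers was 348 and 327 CPM in wild type and 380 and 400 CPM in Shh null, 1.15-fold apart. Krt5, with the largest fitted change of the 8, was at 27.97 and 31.7 CPM and at 40.4 and 39.5 CPM (adjusted p = 0.105). The part of ectoderm content in the Col17a1 and Col7a1 values was not tested.

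The remaining members lie in vessel walls, eye, and less well studied matrices. The multiplexin Col18a1, a heparan sulfate collagen of basement membranes, was at 172 and 174 CPM in wild type and at 205 and 161 CPM in Shh null. The related Col15a1 was at 14.7 and 14.5 CPM and at 17.2 and 14.8 CPM. Neither was called (limma adjusted p = 0.805 and 0.699). Endothelial markers, which such collagens accompany, gave 0 calls of 8 by limma, edgeR and DESeq2, 0 at an unadjusted p under 0.05, and summed to 200 and 260 CPM in wild type and 230 and 236 CPM in Shh null. Col26a1 was among the abundant chains, at 128 and 136 CPM and at 186 and 154 CPM (adjusted p = 0.136). Col8a2, a short-chain network collagen, was at 1.79 and 2.64 CPM and at 5.14 and 3.98 CPM (adjusted p = 0.0803), and was called without wild type 2 (0.00834). Its partner Col8a1 was at 0.0551 to 0.32 CPM, below the filter.

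**Figure D3:**
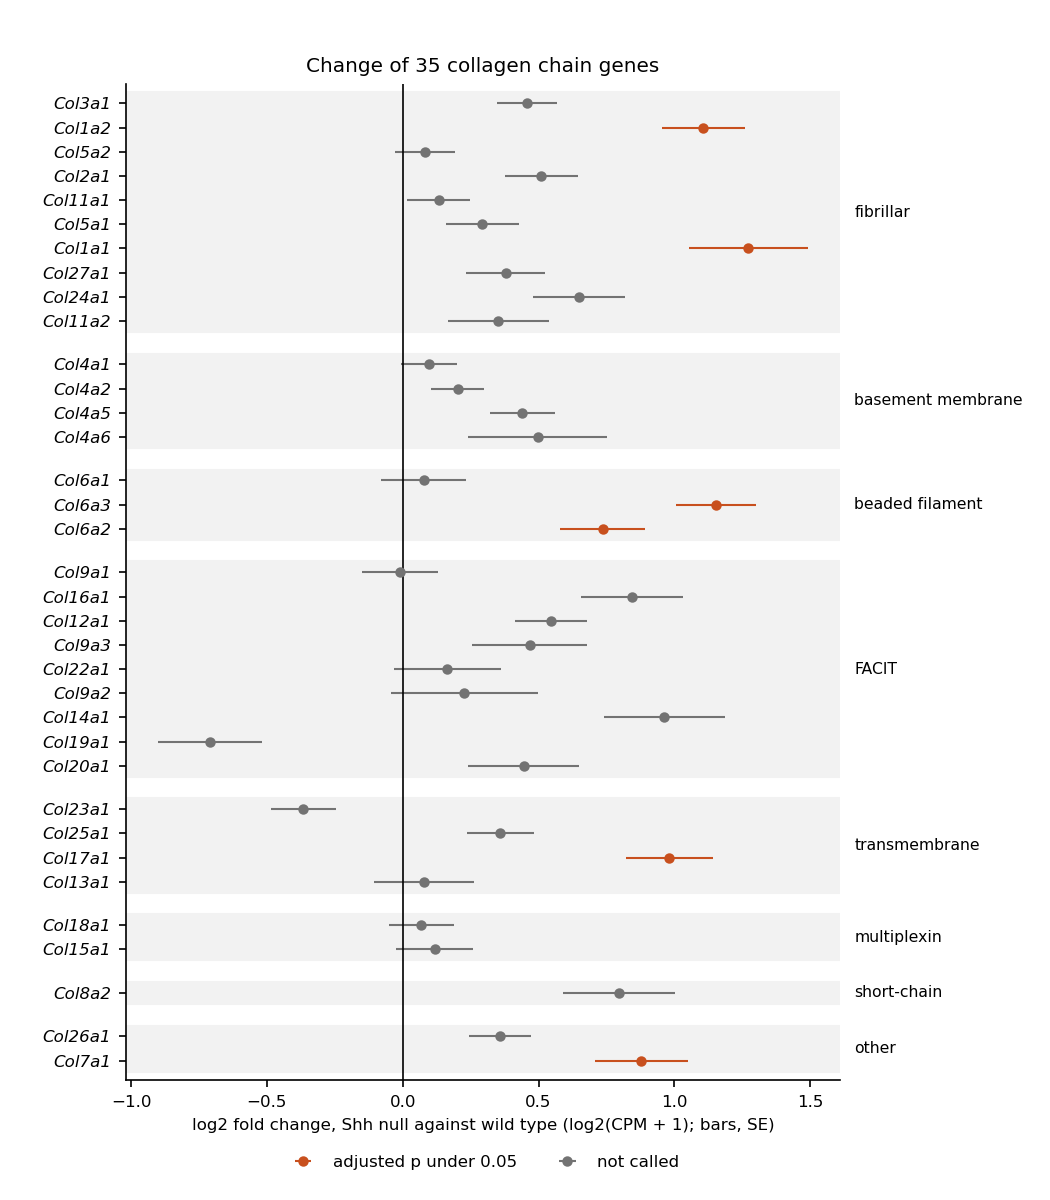
Log2 fold change on the log2(CPM + 1) scale, Shh null against wild type, of the 35 collagen chain genes by class, with bars of 1 SE from limma. Orange points passed an adjusted p under 0.05. The 6 called genes lie between 0.74 and 1.27, and the points left of 0 are Col19a1, Col23a1 and, at −0.01, Col9a1.

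The 9 genes outside the filter were Col4a3, Col4a4, Col5a3, Col6a4, Col6a5, Col6a6, Col8a1, Col10a1 and Col28a1. Each was below 1 CPM in every library, and none was tested. The nearest to the threshold was Col28a1, at 0.316 and 0.441 CPM in wild type and at 0.912 and 0.732 CPM in Shh null. Just inside was Col20a1, at 0.526 and 0.826 CPM and at 1.41 and 1.14 CPM. Col10a1, the collagen of hypertrophic cartilage, was at 0.597 and 0.331 CPM in wild type and at 0.415 and 0.0915 CPM in Shh null. A count of 0, found for Col5a3 in wild type 1, Col6a4 in wild type 2 and Col6a5 in wild type 2 and Shh null 2, allows up to 0.105 to 0.165 CPM (3 reads, counting error only).

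The collagen signal was carried by few genes. Summed over the 35 genes it was 2913 and 2928 CPM in wild type and 4343 and 3689 CPM in Shh null, a ratio of 1.38 between the means. Col1a2 and Col3a1 together made up 42.6% and 45.6% of this sum in wild type, and 53.1% and 51.8% of it in Shh null. The fibrillar class as a whole held 64.1% and 65.5% in wild type, against 70.3% and 69.9% in the Shh null libraries, whereas basement membrane chains held 15.5% and 14.3% and then 11.6% and 12.8%. Without Col1a2 and Col3a1 the fibrillar sum was 625 and 583 CPM in wild type and 750 and 665 CPM in Shh null. In level per kilobase the order began with Col3a1, Col1a2, Col5a2, Col26a1, Col4a1, Col18a1, Col4a2, Col2a1, Col9a1 and Col23a1. The span was wide, from 184 CPM per kb for Col3a1 to 0.195 CPM per kb for Col20a1, as means over the 4 libraries. The same 10 genes led when length was taken over all joined exons.

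The authors' deposited table gave a false discovery rate under 0.05 to 13 of the 35 with a positive log2 fold change and to 1 (Col19a1) with a negative one, and to 660 of 13204 tested genes found in it. In the authors' deposited table the log2 fold changes were 1.12 for Col1a2, 1.38 for Col1a1, 1.23 for Col6a3, 1.04 for Col17a1 and −1.28 for Col19a1, on a scale without the added constant of 1.

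Genes that regulate collagen genes or act on their products were examined beside the chains. In 8 lists on modification, secretion, processing, crosslinking, matrix partners, receptors, degradation and regulation, 88 genes were tested. Of these 4 were called higher and 1 lower by limma, against 1.24% and 1.24% of all tested genes. The median log2 fold change of the 88 was 0.06. At an unadjusted limma p under 0.05, 26 were higher and 4 lower, against 9.5% and 9.02% of all tested genes. In 39 both Shh null libraries lay above both wild-type libraries and in 11 both lay below, against 25.1% and 25%. The same shares over all genes apply to the counts of each list below. Among 19 tested genes for chain modification and folding limma, edgeR and DESeq2 called 0, and 2 were above wild type with an unadjusted p under 0.05. P4ha3, a prolyl hydroxylase subunit, was at 0.246 and 0.661 CPM in wild type and at 1.37 and 1.46 CPM in Shh null (adjusted p = 0.109), and Leprel2, a prolyl 3-hydroxylase family gene, was at 37.0 and 39.3 CPM and at 54.0 and 44.6 CPM. The summed level of this list was 2542 and 2531 CPM in wild type and 2521 and 2480 CPM in Shh null. The summed collagen signal was 1.38-fold apart. Both sums rest mainly on a few abundant genes. In this list these were P4hb (868 and 963 CPM, then 899 and 829 CPM) and Serpinh1 (689 and 643 CPM, then 678 and 692 CPM). Of the 19 genes, 14 had a fitted change above 0 and 5 below.

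Secretion genes (11 tested) and propeptide processing genes (6 tested) also had 0 calls by limma, edgeR and DESeq2. In the first, 1 was higher and 1 lower at an unadjusted p under 0.05 (Creb3l2, 10.27 ± 0.978 and 13.96 ± 0.786 CPM, and Sec23b, 104 ± 12.01 and 83.4 ± 1.48 CPM; SD, n = 2). In the other, 2 were higher, the proteinase genes Bmp1 (110 ± 2.20 and 137 ± 16.4 CPM) and Adamts2 (1.08 ± 0.492 and 2.01 ± 0.324 CPM). Of 6 tested crosslinking genes 1 was called, the lysyl oxidase gene Loxl3. It was at 13.1 and 12.2 CPM in wild type and at 23.7 and 21.7 CPM in Shh null, a 1.80-fold rise (log2 fold change 0.80 ± 0.14 SE, limma adjusted p = 0.0161). Leaving out Shh null 1 gave 0.212 and leaving out Shh null 2 gave 0.0815. Lox, the founding member of that family, was at 2.67 and 4.24 CPM and at 5.76 and 6.54 CPM and was not called (adjusted p = 0.112).

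Among 11 tested fibril and network partners, 1 gene fell. Nid1, whose product nidogen bridges laminin and type IV collagen in basement membranes, was at 133 and 153 CPM in wild type and at 74.9 and 70.7 CPM in Shh null. It fell 1.96-fold (log2 fold change −0.96 ± 0.11 SE, limma adjusted p = 0.00173), while Col4a1 and Col4a2 were not called. Bgn, the proteoglycan biglycan, was at 16.7 and 18.8 CPM and at 37.6 and 25.4 CPM (limma adjusted p = 0.0556) and was called by edgeR and DESeq2. Fn1, the fibronectin gene, was at 172 and 217 CPM and at 307 and 243 CPM, and was called by DESeq2 only (0.0283, against 0.102 by limma). In this list 3 genes were higher and 1 lower at an unadjusted p under 0.05. None of 12 receptor genes was called by limma, edgeR or DESeq2, with 5 higher and 1 lower at an unadjusted p under 0.05. The proteoglycan gene Cspg4 (4.08 ± 0.0845 and 7.39 ± 0.687 CPM, SD, n = 2) and the integrin gene Itga11 (2.74 ± 0.14 and 4.68 ± 1.18 CPM) had the largest differences. None of 9 degradation genes was called by limma or edgeR, and Timp2 was by DESeq2, with 3 higher and 1 lower at an unadjusted p under 0.05, among them Ctsk (5.35 ± 0.921 and 8.76 ± 0.931 CPM) and Timp2 (43.1 ± 3.58 and 61.7 ± 5.26 CPM, adjusted p = 0.054).

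Of 14 tested regulators of collagen genes, 3 were called higher and 0 lower. Runx2, which encodes a bone lineage transcription factor, was at 3.51 and 4.57 CPM in wild type and at 10.4 and 9.24 CPM in Shh null (2.43-fold, limma adjusted p = 0.0126). Tgfb2, a growth factor gene whose family induces matrix genes, was at 26.3 and 33.8 CPM and at 60.4 and 54.4 CPM (1.91-fold, adjusted p = 0.00914). Twist1, a mesenchymal transcription factor gene, was at 181 and 181 CPM and at 276 and 309 CPM (1.62-fold, adjusted p = 0.00723). All 3 calls rested on both Shh null libraries: leaving out Shh null 1 gave adjusted p of 0.19, 0.172 and 0.0538 in this order, and leaving out Shh null 2 gave 0.0767, 0.0657 and 0.0749. Sox9, the principal activator of Col2a1, was at 24.3 and 19.2 CPM and at 25.3 and 18.6 CPM (adjusted p = 0.989). Its cofactor genes Sox5 (14.04 and 16.2 CPM, then 19.8 and 18.4 CPM) and Sox6 (25.4 and 21.7 CPM, then 39.9 and 31.6 CPM) were not called by limma (adjusted p = 0.26 and 0.0742), although Sox6 was by DESeq2.

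**Figure D4:**
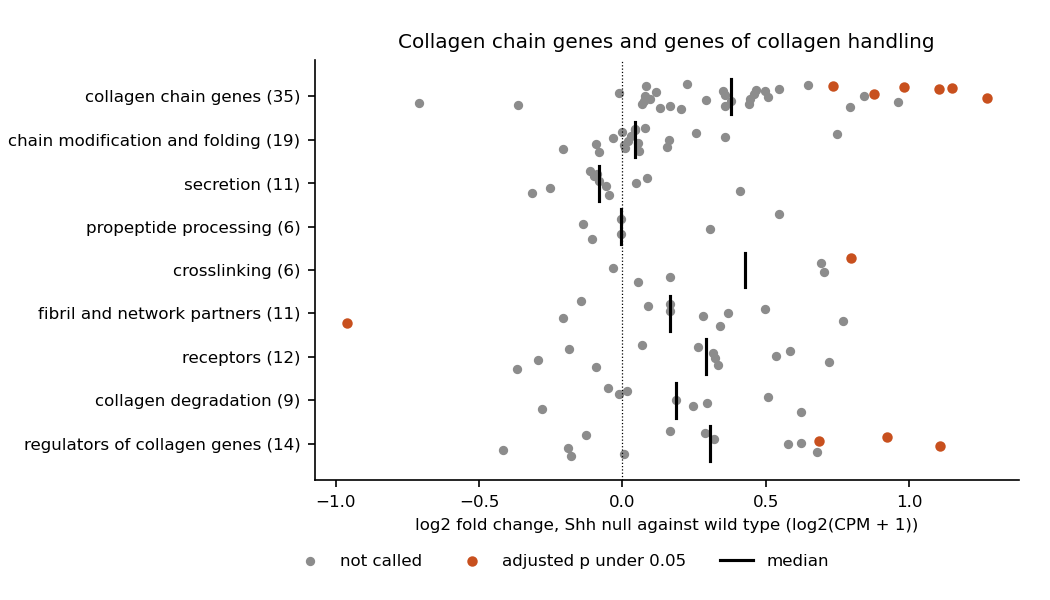
Log2 fold change on the log2(CPM + 1) scale, Shh null against wild type, of each tested gene in the collagen chain set and in 8 lists of collagen handling, with the number tested in parentheses. Orange points passed an adjusted p under 0.05 and black bars are medians. The collagen chain genes have a median of 0.38, and the modification, secretion and processing lists have medians of 0.04, −0.08 and −0.01.

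Cell type markers moved beside the collagen chain genes in part. Of the 7 limb mesenchyme markers, Prrx1, Prrx2 and Twist1 were called higher and Fgf10 lower, and the list summed to 787 and 809 CPM in wild type and 1143 and 1121 CPM in Shh null. The Prrx1 call was lost with the replicate block (adjusted p = 0.0661), without a filter (0.087), and with wild type 1 (0.107), Shh null 1 (0.296) or Shh null 2 (0.107) left out. With Shh null 1 or Shh null 2 left out, the adjusted p was 0.215 and 0.122 for Prrx2 and 0.162 and 0.081 for Fgf10, and without a filter it was 0.0514 for Prrx2. Of 5 tested chondrogenic markers limma and edgeR called 0, DESeq2 called Sox6, and 3 were above wild type with an unadjusted p under 0.05, with sums of 113 and 107 CPM and of 140 and 138 CPM, and the cartilage proteoglycan gene Acan was at 0.11 to 0.249 CPM. Macrophage markers summed to 16.1 and 14.1 CPM and to 27.7 and 26.1 CPM, a ratio of 1.78 between the means. All 5 tested were above wild type in both Shh null libraries with an unadjusted p under 0.05, and Cx3cr1 was called. Its call (limma adjusted p = 0.0331) was lost with quantile normalization (0.075), without a filter (0.0782), and with Shh null 1 (0.313) or Shh null 2 (0.0707) left out. Of 3 tested neural crest and glial markers Erbb3 was called (limma adjusted p = 0.0192, but 0.0533 without a filter, and 0.221 and 0.103 with Shh null 1 and Shh null 2 left out), and the defining gene Sox10 was at 0.229 to 0.551 CPM. Myogenic markers (3 tested, sums 91.0 and 97.7 then 108 and 109 CPM) gave 0 calls by limma, edgeR and DESeq2, with 1 above wild type at an unadjusted p under 0.05. Trunk mesoderm markers (5 tested) summed to 173 and 141 CPM and to 161 and 131 CPM. Pax1 was called higher, but 3 of the 5 had a fitted change below 0. At an unadjusted limma p under 0.05, 1 trunk mesoderm marker was higher and 2 were lower. Of the 5 erythroid genes 0 were called by limma, edgeR or DESeq2 and 0 had an unadjusted p under 0.05. The part of these cell types in the collagen values was not tested.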

How the data were processed

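RNA of 4 forelimb libraries was measured by sequencing. Per the submitters' processing notes the tools were edgeR 3.4.2, HTSeq 0.5.4p5, TopHat2 2.0.9 and SAMtools, with build mm10. Which annotation was counted, and whether by strand, is not given in the sources used here. Reads of overlapping genes could therefore be shared. For each library the authors deposited a normalized signal per gene. All values (100%, tolerance 0.001 reads) were whole multiples of their library's smallest value above 0, and TMM scaling of the recovered reads gave the deposited signal with a difference of 0%, so values are called CPM. A second deposited table holds log2 fold changes, p-values and false discovery rates (q-values) computed by the authors.

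Genes with at least 1 CPM in at least 2 libraries (13224) were fitted on log2(CPM + 1) with limma 3.58.1 (R 4.3.3, trend, genotype only), with Benjamini-Hochberg adjustment over all of them. Folds are ratios of mean CPM. Alternatives were other pseudocounts (0.5, 0.1), filters, scalings, edgeR 4.0.16 and DESeq2 1.42.0 on recovered reads, a replicate block, and leaving out each library. With 1 library left in a group, it is assumed to vary like the other. Steps were tested on simulated data. With counts simulated for the Shh null and wild-type libraries (13216 genes tested), limma recovered 32.8% of 1.5-fold changes, 86.6% of 2-fold changes and 100% of 4-fold changes.

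Members and lists were chosen with earlier results of these data known. Values in every library are given for called members, the 3 members of each class with the highest level per kilobase, and their partner chains. From other lists up to 4 called genes are named, or, with fewer than 2 called, the 2 that changed most, with Shh, Gli1, Ptch1, Sox9, Sox5, Sox6 and Runx2 besides. Further genes (Col2a1, Col11a1, Col11a2, Col19a1, Col14a1, Col24a1, Col27a1, Col20a1, Col13a1, Col28a1, Col10a1, Col6a4, Col6a5, Col6a6, Fn1, Krt5, Acan, Sox10, Xist, Ddx3y and Eif2s3y) were named after their values were seen. Lengths are of the longest transcript in GENCODE M21, and promoter windows are from RefSeq.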

Additional observations from a re-analysis of the deposited data

How the results depend on the processing

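The number of collagen chain genes called higher was 6, and with the other pseudocounts, scalings, edgeR, the mean filter and the replicate block it was 5 to 8. It was 3 without a filter on low values and 11 by DESeq2. Leaving out 1 library gave 1 to 11. The number called lower was 0 throughout, except for 2 with crossed numbers. Whether the replicate numbers pair the libraries is not settled by these values. Same-numbered deviations from the group means correlated at −0.203 over genes. With 2 libraries a group the deviations mirror each other, so this is 1 value, and crossing the numbers only turns its sign. The replicate block gave 8 collagen calls and 396 over all genes. A block with the numbers crossed, added after seeing the data, gave 16 higher and 2 lower collagen calls and 1386 calls over all genes. The median log2 fold change of 0.38 ranged from 0.30 to 0.50 over the other settings. Of the 88 genes in the 8 collagen pathway lists, 4 were called higher, 8 by DESeq2 and 0 to 11 with 1 library left out, and 1 was called lower in each of them. Of the 6 collagen calls, 5 were lost without Shh null 1 and 4 without Shh null 2, fits with fewer libraries. Fitted log2 changes near 0 turned sign. With 1 library left out, Col18a1 ranged from −0.10 (without Shh null 1) to 0.24, Col5a2 from −0.0168 (without wild type 2, and −0.0021 without Shh null 1) to 0.18, Col6a1 from −0.0016 (without wild type 1) to 0.15, Col9a1 from −0.18 to 0.16 (without wild type 1, and 0.12 without Shh null 2) and Col9a2 from −0.13 (without Shh null 1, and −0.0224 without wild type 2) to 0.58. With quantile normalization Col6a1 was at −0.0006 and Col9a1 at 0.0398.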

Other observations

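Genes with collagen-like domains or names close to the collagens fell outside the symbol rule and are given here as values, chosen after they were seen. Emilin2, an elastin microfibril interface gene, was at 25.5 and 30.5 CPM in wild type and at 48.2 and 45.8 CPM in Shh null, and was called higher by limma (adjusted p = 0.0161, but 0.212 without Shh null 1 and 0.0927 without Shh null 2). Its relative Emilin1 was at 137 and 145 CPM and at 167 and 139 CPM and was not called. Colec12, a scavenger receptor gene with a collagen-like stretch, was at 43.8 and 44.9 CPM and at 46.4 and 57.3 CPM, also uncalled. Colq, which encodes the collagen tail of acetylcholinesterase, stayed under 1 CPM in all 4 libraries.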
